A study of Mesocricetus auratus with 11 samples.

Results

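The CpGs described here had few other listed CpGs around them and were partly methylated in primary fetal cells of the Syrian hamster. A CpG was taken when it had 10 or more reads in all 11 libraries, when 1 to 9 CpGs listed in any library lay within 250 bp of it on each side (the CpG itself included, its density), and when the pooled reads of primary replicates 1 and 2 were 20 to 80% methylated. They numbered 21005, which is 25.84% of the 81297 CpGs with that coverage, out of 2010882 listed in any library. Because they were chosen by their level in primary replicates 1 and 2, those libraries enter no test, and primary replicates 3 and 4 stood for the primary cells. They are called the selected CpGs below. Density, and the words sparse and denser, count only CpGs listed in the libraries, so CpGs of the genome that were not listed are missed.

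DNA methylation had been read by reduced representation bisulfite sequencing, which cuts the genome at a motif that contains a CpG and reads the fragment ends after bisulfite conversion. MT2 is a female Syrian hamster line from 1 colony that benzo[a]pyrene (5 µg/mL) had transformed morphologically, that had escaped senescence and that was near passage 28. In the treated group, 3 MT2 libraries came from plates exposed for 48 h to 5 µM 5-aza-2'-deoxycytidine (5aCdR), and in the vehicle group 4 came from plates given 0.05% DMSO for 48 h; the protocol names 4 treated plates, of which 3 are analysed here. The primary group held 4 libraries, each of untreated cells of 1 female fetus at gestation day 13.5, taken after removal of head, viscera and limbs and grown for less than 3 days and 1 passage. These were mixed ectodermal and mesodermal cells, so a level is an average over cell types, whereas all MT2 plates were seeded with 1 thawed stock and their p-values measure the spread between plates. Total reads over CpGs were 36110136 to 46148127 in 5aCdR libraries, 17834610 to 37595680 in vehicle libraries and 19331056 to 37417483 in primary libraries, and the median at the selected CpGs was 66 to 82, 36 to 66 and 40 to 67 reads in the same order of groups. Regions carry the scaffold names and positions of the files; their build is a detail not given in the sources used here.

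In mammals, CpGs in dense islands are mostly unmethylated, while CpGs that stand apart are mostly methylated, and a maintenance methyltransferase copies the marks onto the new DNA strand after each replication. A level between the extremes can arise when cells, alleles or strands differ. 5aCdR is built into new DNA and traps the methyltransferases there, so that methylation is lost as treated cells divide.

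The selected CpGs were less methylated in MT2 cells than in primary cells, and less again after 5aCdR. Their mean level was 42.0%, 41.6% and 41.6% in 5aCdR replicates 1 to 3, against 48.4%, 48.8%, 48.9% and 48.5% in vehicle replicates 1 to 4, and 57.5% and 57.6% in primary replicates 3 and 4. The 3 groups did not overlap, and the libraries of a group lay close together. In primary replicates 1 and 2, which chose these CpGs, the level was 54.5% and 53.6%.

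The level averaged 41.7% ± 0.215 (SD, n = 3) with 5aCdR and 48.7% ± 0.236 (SD, n = 4) with vehicle, a difference of -6.92 percentage points and a relative change of -14.2%. By an exact permutation test, two-sided, p was 0.0286, and 35 arrangements of these libraries allow none smaller. For MT2 with vehicle against primary cells at 57.5% ± 0.119 (SD, n = 2), the difference was -8.88 percentage points, with an exact permutation p = 0.0667, the smallest that 15 arrangements allow. With 5aCdR against primary cells it was -15.8 percentage points, at the smallest exact permutation p of 0.1. When reads were pooled over the CpGs, so that deeply read CpGs weighed more, vehicle libraries were at 42.9% to 43.7% and primary replicates 3 and 4 at 58.0% and 58.2%, a difference of -14.7 percentage points. The design of vehicle against primary cells cannot reach a p of 0.05 with primary replicates 3 and 4 alone.

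**Figure D1:**
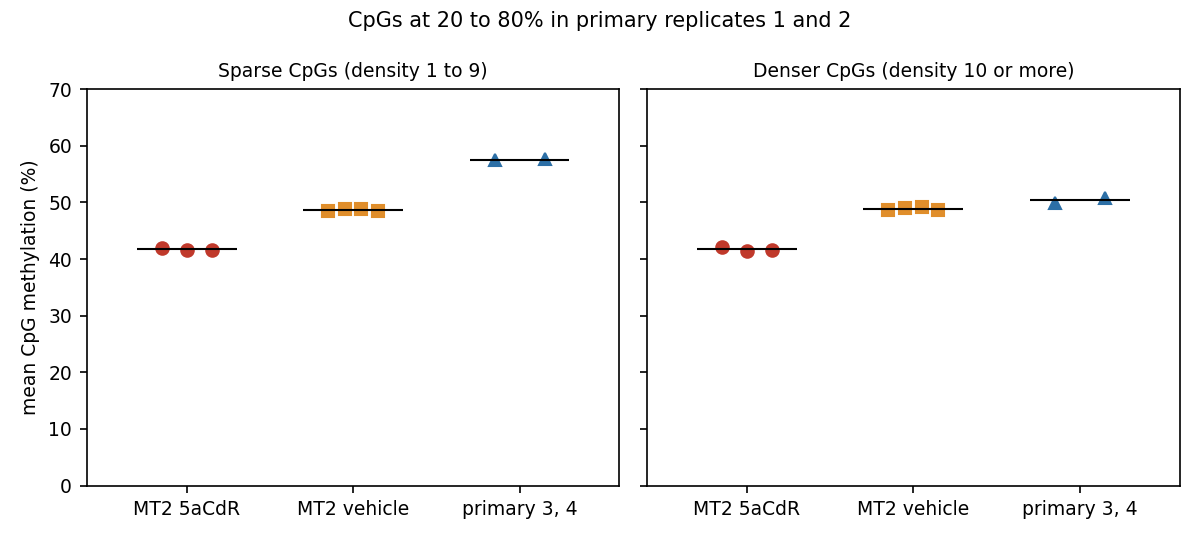
Mean methylation in percent at the selected sparse CpGs (left, 21005 CpGs) and at denser CpGs of the same starting range (right, 5221 CpGs), 1 point per library with the group mean as a line, for MT2 with 5aCdR, MT2 with vehicle and primary replicates 3 and 4. At sparse CpGs the 3 groups are separate, near 41.7%, 48.7% and 57.5%; at denser CpGs the vehicle and primary libraries lie close together.

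What the pooled level calls partly methylated was of several kinds, and the name did not hold for a part of the CpGs once the strands were read apart. At 8868 of the selected CpGs (42.2%) only 1 strand was listed in all 11 libraries, so their level is that of 1 strand. Both strands were listed in primary replicates 1 or 2 at 9336. At 3124 of these (33.5%, and 14.9% of the selected CpGs) 1 strand was below 20% and the other above 80%. The intermediate value there came from summing a strand read as methylated and a strand read as unmethylated. Whether the DNA in the cells differed between its strands was not tested. Both strands lay between 20 and 80% at 1596 of the 9336 (17.1%).

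The opposite state was also seen in libraries that had no part in the choice. At those CpGs, the strand that had been above 80% averaged 61.1%, 61.7% and 60.0% in 5aCdR replicates 1 to 3, against 74.3%, 73.9%, 74.2% and 73.1% in vehicle replicates 1 to 4. In primary replicates 3 and 4 it averaged 82.5% and 81.6%. The strand that had been below 20% averaged 9.12% to 9.50% in 5aCdR libraries, 10.8% to 12% in vehicle libraries and 11.6% and 12.6% in primary replicates 3 and 4. The formerly high strand was the higher one at 82.6% to 84.1% of CpGs with both strands listed in 5aCdR libraries, at 79.3% to 83.3% in vehicle libraries, and at 88.1% and 88.9% in primary replicates 3 and 4. The difference between strands thus kept its side at most of these CpGs in all 9 libraries.

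**Figure D2:**
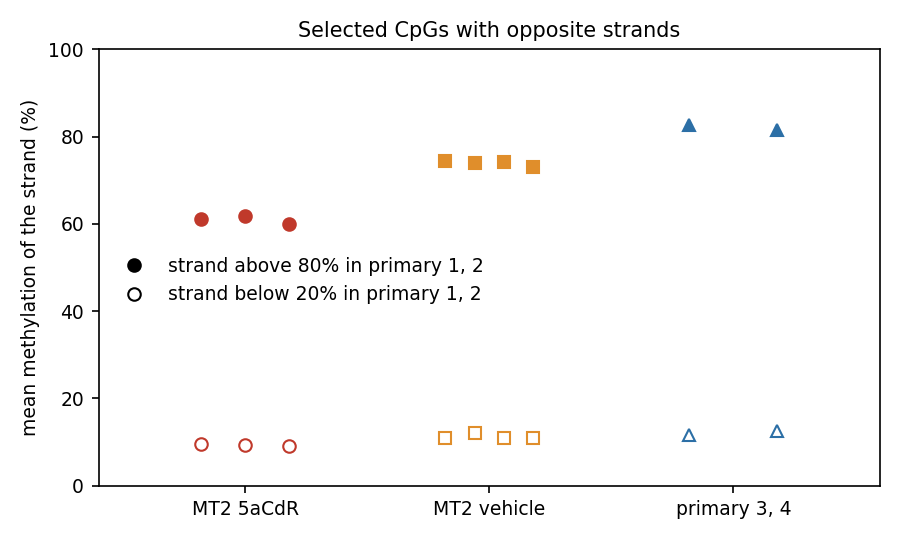
Mean methylation in percent of each strand at the selected CpGs with opposite strands, 1 pair of points per library. Filled points are the strand above 80% in primary replicates 1 and 2 and open points the strand below 20%; in every library shown the filled point is at 60.0% or more and the open point at 12.6% or less.

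Which strand was high followed the position of a neighbour. Of the 1581 opposite-strand CpGs that were high on the forward strand, 73.8% had another commonly covered CpG 51 to 75 bp to the right and 2.21% had one 51 to 75 bp to the left. Of the 1543 that were high on the reverse strand, 72.7% had one to the left and 2.79% had one to the right. Among 585 pairs of opposite-strand CpGs 51 to 75 bp apart, the left was high on the forward and the right on the reverse strand in 579 (99%). Pairs of selected CpGs at that distance held 62.1% of the opposite-strand CpGs and 12.9% of those listed on 1 strand. Where these CpGs lie in the sequenced fragments was not tested, and no trimming settings are given in the sources used here.

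Each of the strand classes compared here was lower with 5aCdR than with vehicle, and lower in MT2 than in primary cells. Selected CpGs that fell in none of these classes were not compared apart. CpGs listed on 1 strand averaged 46.7% ± 0.390 (SD, n = 3) with 5aCdR, 52.3% ± 0.367 (SD, n = 4) with vehicle and 64.3% ± 0.0413 (SD, n = 2) in primary cells. This is -5.56 percentage points for 5aCdR against vehicle and -12.1 for vehicle against primary cells. CpGs with both strands from 20 to 80% averaged 36.9% ± 0.281 (SD, n = 3) with 5aCdR, 44.6% ± 0.517 (SD, n = 4) with vehicle and 53.8% ± 0.983 (SD, n = 2) in primary cells, with differences of -7.66 and -9.23. Opposite-strand CpGs averaged 34.7% ± 0.104 (SD, n = 3), 42.6% ± 0.324 (SD, n = 4) and 46.9% ± 0.176 (SD, n = 2) in the same groups, with differences of -7.88 and -4.33. The exact permutation p was the smallest possible in each of these 6 comparisons, 0.0286 for 5aCdR against vehicle and 0.0667 for vehicle against primary cells, and whether the strand classes differ from one another was not tested.

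The level classes of single CpGs shifted in ways that the mean does not show. To remove the effect of unequal depth, 10 reads per CpG were considered in each library, and the expected share of CpGs in each class was computed. Below 20% methylation stood 29.7% ± 1.05 (SD, n = 3) of the selected CpGs with 5aCdR, 29.9% ± 2.95 (SD, n = 4) with vehicle and 15.1% ± 2.36 (SD, n = 2) in primary cells. Above 80% stood 16.3% ± 0.588 (SD, n = 3) with 5aCdR, 28.8% ± 3.18 (SD, n = 4) with vehicle and 28.9% ± 2.53 (SD, n = 2) in primary cells. The 20 to 80% class held 53.9% ± 1.63 (SD, n = 3), 41.2% ± 6.12 (SD, n = 4) and 56.0% ± 4.89 (SD, n = 2). Against vehicle, the mean of the 5aCdR libraries was thus lower for the highly methylated class and near equal for the low class, and for CpGs chosen in primary cells the vehicle mean was above the primary mean for the low class and near equal to it for the high class.

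The share above 80% was 15.7% to 16.9% in 5aCdR libraries and 25.8% to 31.9% in vehicle libraries, a difference of -12.5 percentage points (exact permutation test, p = 0.0286, and 0.0857 after Benjamini-Hochberg adjustment for 3 classes). In the class below 20%, the groups differed by -0.207 percentage points (exact permutation, p = 0.914). Between vehicle and primary libraries the share below 20% differed by 14.8 percentage points (exact permutation test, p = 0.0667, adjusted 0.2), with 27.2% to 32.8% in vehicle libraries against 16.8% and 13.4% in primary replicates 3 and 4. The share above 80% differed by -0.0605 percentage points there (exact permutation, p = 0.933). None of these class shares passed the adjusted threshold. Between vehicle and primary libraries none could, as the smallest possible exact permutation p is 0.0667. Between 5aCdR and vehicle, 1 class alone at the smallest exact permutation p of 0.0286 could not pass either.

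All 3 shares moved with depth within the vehicle group. The intermediate share was 47% and 46.0% in vehicle replicates 1 and 4, with a median of 66 and 60 reads at the selected CpGs, and 36.5% and 35.4% in vehicle replicates 2 and 3, with a median of 36 reads each. The share below 20% was 27.2% and 27.6% in vehicle replicates 1 and 4, and 32.2% and 32.8% in vehicle replicates 2 and 3. In 5aCdR replicates 1 to 3, with a median of 82, 66 and 76 reads, it was 28.6%, 30.7% and 29.9%, above the deeper and below the shallower vehicle libraries. The share above 80% was 25.8% and 26.5% in vehicle replicates 1 and 4, and 31.3% and 31.9% in vehicle replicates 2 and 3. The part of depth in these differences was not tested.

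The difference from primary cells depended on which cells had made the choice. For 19400 CpGs chosen in the same way by vehicle replicates 1 and 2, of which 10840 were also among the selected CpGs, the intermediate share was 44.9% and 58.4% in vehicle replicates 3 and 4, against 46.9% and 54.2% in primary replicates 3 and 4. The difference was 1.08 percentage points there, against -14.8 with the CpGs chosen in primary cells. For the share below 20% it was 7.26 percentage points, against 14.8, and for the share above 80% it was -8.34, against -0.0605. With the CpGs chosen by vehicle replicates, the exact permutation p was 0.333 for both of these shares, the smallest that 2 libraries against 2 allow, and 1 for the intermediate share.

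**Figure D3:**
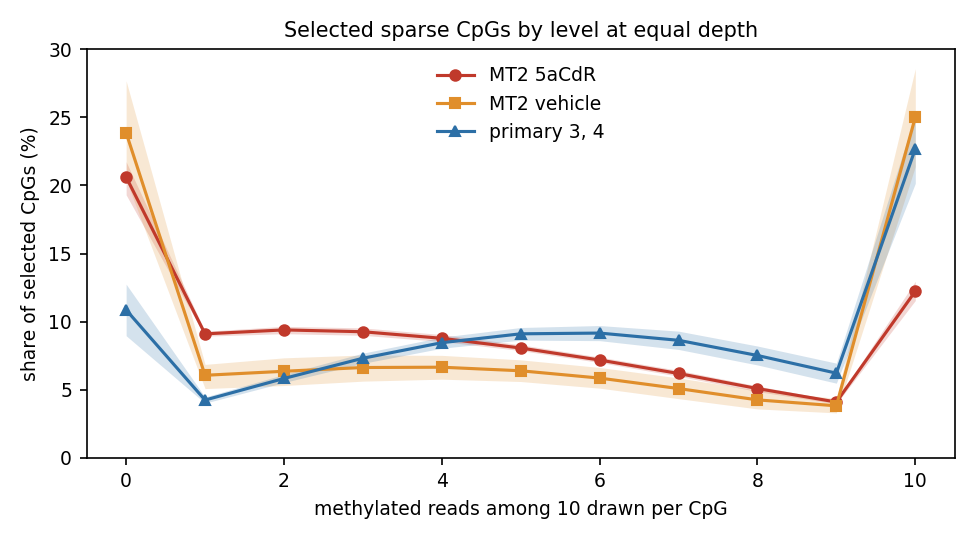
Share of the selected CpGs in percent by the number of methylated reads among 10 drawn per CpG, as means of MT2 with 5aCdR, MT2 with vehicle and primary replicates 3 and 4, with the range over libraries shaded. Fully methylated draws made up 12.2% with 5aCdR, 25% with vehicle and 22.7% in primary cells, and fully unmethylated draws 20.6%, 23.9% and 10.9%.

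The share of read pairs at a CpG that differ in methylation gave the same order. It was 28.8%, 27.2% and 27.9% in 5aCdR replicates 1 to 3, against 24.4%, 19.1%, 18.4% and 23.8% in vehicle replicates 1 to 4. The 5aCdR libraries lay above all vehicle libraries, and the 2 shallow vehicle libraries were the lowest. The difference was 6.55 percentage points (exact permutation test, p = 0.0571). In primary replicates 3 and 4 the share was 26.9% and 30.5%, and vehicle minus primary cells was -7.29 percentage points (exact permutation, p = 0.133). When primary replicates 3 and 4 made the choice and replicates 1 and 2 stood for primary cells, the difference was -3.03 (exact permutation, p = 0.2). For the CpGs chosen by vehicle replicates 1 and 2 it was 0.400, with 23.1% and 29.9% in vehicle replicates 3 and 4 against 24.2% and 28.0% in primary replicates 3 and 4.

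Single CpGs varied far more than the means. Between 5aCdR replicates 1 and 2 the selected CpGs differed by 19.6 percentage points on average. Between vehicle replicates 1 and 4 it was 20.1, between the shallow vehicle replicates 2 and 3 25.1, and between primary replicates 3 and 4 25.4. Only 744 (3.54%) were at 20 to 80% in all of the 9 libraries that did not choose them, and 7436 (35.4%) in both primary replicates 3 and 4. In primary replicates 3 and 4, 806 (3.84%) had 1 library below 20% and the other above 80%. Plates of the 1 MT2 stock also differed so, at 1546 (7.36%) between vehicle replicates 2 and 3. It was 588 (2.8%) between vehicle replicates 1 and 4 and 397 (1.89%) between 5aCdR replicates 1 and 2. In primary replicates 1 and 2 such CpGs were 2487 (11.8%), but a choice by their pooled level draws them in. Few of the selected CpGs were thus intermediate in every library.

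In these libraries the gap between MT2 and primary cells was wider at sparse than at denser CpGs. At 5221 denser CpGs (density of 10 or more) chosen by the same level in primary replicates 1 and 2, the mean was 42.1%, 41.4% and 41.6% in 5aCdR replicates 1 to 3, 48.7%, 49.0%, 49.1% and 48.6% in vehicle replicates 1 to 4, and 50.0% and 50.8% in primary replicates 3 and 4. In the MT2 libraries sparse and denser CpGs were thus at about 1 level, and in primary replicates 3 and 4 the sparse ones were higher. Selected minus denser CpGs gave -0.215 ± 0.101 percentage points with vehicle (SD, n = 4) and 7.13 ± 0.497 in primary cells (SD, n = 2), a difference of -7.35 between the groups (exact permutation test, p = 0.0667, the smallest possible, adjusted over 3 classes 0.1). Both classes were also brought to the same starting levels in bins of 5 points, an alternative chosen after the data were seen. The gap was then -2.997 ± 0.163 with vehicle (SD, n = 4) and 3.58 ± 0.376 in primary replicates 3 and 4 (SD, n = 2). The difference was -6.57 (exact permutation, p = 0.0667). In primary replicates 1 and 2, in which the levels were matched, the gap was 0.302 and 0.312 percentage points. Without matching, among CpGs listed on 1 strand only, the difference was -7.93 percentage points (exact permutation, p = 0.0667).

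The loss with 5aCdR differed between sparse and denser CpGs by less than 1 percentage point. The gap between the classes was 0.0561 ± 0.156 percentage points with 5aCdR (SD, n = 3) and -0.215 ± 0.101 with vehicle (SD, n = 4), a difference of 0.271 (exact permutation test, p = 0.0857). With starting levels matched it was 0.568, and the exact permutation p was 0.0286, a slightly smaller loss at the selected CpGs on average over the starting levels. This did not hold at every start. At 20 to 40% the selected CpGs changed by -5.75 and the denser ones by -5.52 percentage points, at 40 to 60% by -6.54 and -7.46, and at 60 to 80% by -7.98 and -8.71. Among CpGs listed on 1 strand only the difference was 0.115 (exact permutation, p = 0.886).

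The difference between MT2 and primary cells narrowed with density, though not at each step. The 822 selected CpGs with no other covered CpG within 250 bp averaged 44.2% ± 0.911 (SD, n = 3) with 5aCdR, 45.8% ± 0.226 (SD, n = 4) with vehicle and 65.4% ± 0.986 (SD, n = 2) in primary cells. They lay -19.6 percentage points apart between vehicle and primary cells, the widest gap of any density. At a density of 2, 3 and 4 the gap was -12.1, -10.5 and -8.81 percentage points. At 5, 6 and 7 it was -6.88, -7.52 and -5.81, and at 8 and 9 it was -4.24 and -5.42. Beyond the limit of the choice it was -3.47 at 10 to 14, 0.0442 at 15 to 19 and 2.78 at 20 or more, where vehicle libraries, at 40.1% to 40.8%, lay above primary replicates 3 and 4 at 37.1% and 38.3%.

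Against this, the relative loss with 5aCdR hardly moved with density. It lay between -15.5% and -13.6% at densities 2 to 9, and between -16.0% and -14.3% at 10 and above. The CpGs with no other covered CpG within 250 bp stood apart with a relative change of -3.51%. They were at 43.6% to 45.2% in 5aCdR libraries against 45.5% to 46.0% in vehicle libraries. Their groups were still apart, by -1.61 percentage points.

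**Figure D4:**
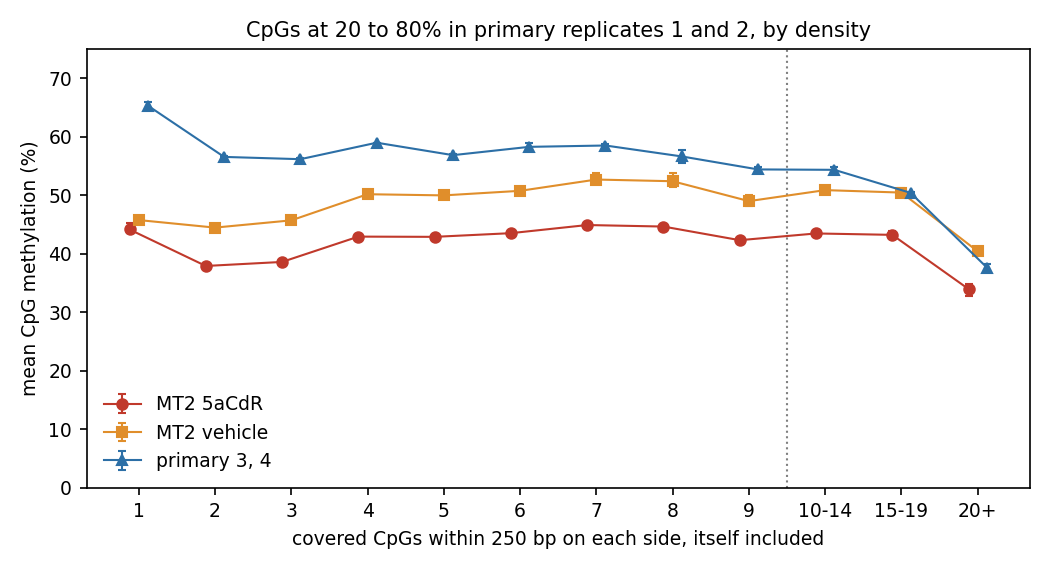
Mean methylation in percent of CpGs at 20 to 80% in primary replicates 1 and 2, by the number of covered CpGs within 250 bp on each side, with bars for the range over libraries; the dotted line is the limit of the selected CpGs. The gap between MT2 with vehicle and primary replicates 3 and 4 is -19.6 percentage points at density 1 and -5.42 at density 9, while the gap between 5aCdR and vehicle is -7.78 to -6.45 from density 2 onward.

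Starting level mattered as well. Selected CpGs that began at 20 to 40% averaged 29.9% ± 0.180 (SD, n = 3) with 5aCdR, 35.6% ± 0.167 (SD, n = 4) with vehicle and 39.8% ± 0.260 (SD, n = 2) in primary cells. Those that began at 60 to 80% averaged 50.9% ± 0.403 (SD, n = 3), 58.9% ± 0.380 (SD, n = 4) and 70.6% ± 0.164 (SD, n = 2). The gap between vehicle and primary cells was -4.15 percentage points in the lower range, -9.18 at 40 to 60% and -11.7 in the upper range. At denser CpGs of the same ranges it was 2.50, -2.45 and -4.95, so at each start the sparse CpGs were the further below primary cells.

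Sparse CpGs outside the level limits framed this. The 8753 sparse CpGs below 20% in primary replicates 1 and 2 were at 16.6% to 16.8% with 5aCdR, 19.6% to 20.2% with vehicle, and 15.9% and 16.5% in primary replicates 3 and 4. There vehicle was the highest of the 3 groups, unlike at the selected CpGs. The 16706 sparse CpGs above 80% were at 68.1% to 68.7% with 5aCdR, 76.6% to 77.0% with vehicle, and 85.2% and 85.3% in primary replicates 3 and 4. The change of the selected CpGs between vehicle and primary cells differed by -12.6 percentage points from that of the low class (exact permutation test, p = 0.0667, adjusted 0.1) and by -0.488 from that of the high class (exact permutation, p = 0.133, adjusted 0.133). Between 5aCdR and vehicle it differed by -3.70 from the low class and by 1.62 from the high class (exact permutation test, adjusted p = 0.0429 each), while on the scale of log2 ratios neither passed after adjustment (exact permutation, adjusted p = 0.114 and 0.0857).

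At the limits of the choice there was no step. The 544 selected CpGs at 20 to below 22% were at 25.2% with 5aCdR, 30.6% with vehicle and 31.6% in primary replicates 3 and 4, and the 457 CpGs just outside, at 18 to below 20%, at 25.1%, 28.8% and 30.5%. The 950 at above 78 to 80% were at 57.5%, 65.6% and 77.0%, and the 854 at above 80 to 82% at 60.0%, 68.2% and 79.0%. CpGs of density 9 were at 42.4%, 49.0% and 54.5% in the same groups, and CpGs of density 10 at 43.9%, 50.2% and 55.1%.

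Counted in percentage points, the loss with 5aCdR was greater where MT2 cells were more methylated. Grouped by vehicle replicates 1 and 2, which were then left out, 5367 of the selected CpGs (25.5%) were below 20% in MT2, 10840 (51.6%) at 20 to 80% and 4798 (22.8%) above 80%. The low group was at 14.2% ± 0.141 with 5aCdR (SD, n = 3) and 16.2% ± 0.421 with vehicle (SD, n = 2), and the intermediate group at 41.0% ± 0.257 and 48.4% ± 0.378. The high group was at 74.2% ± 0.225 with 5aCdR (SD, n = 3) and 85.7% ± 0.201 with vehicle (SD, n = 2). Counted so, 5aCdR minus vehicle was -2.02, -7.44 and -11.5 percentage points, each with the smallest exact permutation p of 0.1, and the relative changes -12.5%, -15.4% and -13.4%. Whether these 3 groups differ in their loss was not tested.

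Some of the selected CpGs stood at the extremes in every vehicle library. The 1428 selected CpGs that were read as fully methylated in all 4 vehicle libraries were at 82%, 81.6% and 80.6% in 5aCdR replicates 1 to 3, and at 76.1% and 77.7% in primary replicates 3 and 4. The 803 read as fully unmethylated in all vehicle libraries were at 6.40%, 5.62% and 6.01% in 5aCdR libraries and at 38.5% and 39.4% in primary replicates 3 and 4. As these CpGs were grouped by their vehicle values, the levels are given as a description.

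Single CpGs were tested with a quasi-binomial model on methylated and unmethylated reads, fitted over all CpGs with 10 reads in each library of the groups, with an adjusted p below 0.05 as a call. For 5aCdR against vehicle, 23 of 21005 selected CpGs were called lower (0.109%, against 0.084% of all 155920 CpGs tested) and 0 higher (against 0.000641% of all). At an unadjusted p below 0.05, 2354 were lower (11.2%, against 7.58% of all) and 355 higher (1.69%, against 1.19% of all). Here and below, all CpGs and tiles tested were not matched to the selected ones in depth or level. At 10 reads, 46.8% to 50.5% of the commonly covered CpGs were below 20% in vehicle libraries. Of the selected CpGs it was 27.2% to 32.8%. The part of depth and level in these comparisons was not tested. The median difference of the selected CpGs was -5.03 percentage points, against 0 over all CpGs tested. In 1614 (7.68%) every 5aCdR library lay below every vehicle library, against 4.39% of all CpGs, and in 294 (1.40%) every one lay above, against 0.829% of all. The called CpGs were deeply read, with 369 reads per library as their median, while that of all selected CpGs was 61.4, and were at a median of 54.9% with 5aCdR and 98.5% with vehicle.

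The 3 largest called falls were at CpGs read as fully methylated in each vehicle library. The CpG at 29823538 of KB708131.1 was at 29.6%, 25% and 49.2% in 5aCdR replicates 1 to 3, from a median of 74 reads (quasi-binomial test, adjusted p = 0.0312). The CpG at 13967581 of KB708137.1 was at 38.3%, 46.1% and 36.6% (quasi-binomial test, adjusted p = 0.0204). The CpG at 38203474 of KB708127.1 was at 41.9%, 25.1% and 68.9%, from a median of 171 reads (quasi-binomial test, adjusted p = 0.00938). No 5aCdR library reached a vehicle library at any of them, which was a condition for naming them. The third CpG varied most between treated plates. Leaving out 5aCdR replicate 1, 2 or 3 ended all of these calls and left 0 selected CpGs called in each case, with 2082, 2148 and 2111 lower at an unadjusted p below 0.05. Leaving out vehicle replicate 1 or 4 gave 8 or 14 called CpGs.

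For MT2 with vehicle against primary cells, 983 selected CpGs (4.68%) were called lower, against 1.58% of all 147189 CpGs tested, and 376 (1.79%) higher, against 0.928% of all. At 10 reads, 45.3% and 43.3% of the commonly covered CpGs were below 20% in primary replicates 3 and 4. Of the selected CpGs it was 16.8% and 13.4%. The part of depth and level in these comparisons was not tested. The median difference of the selected CpGs was -8.21 percentage points, against 0 over all CpGs. In 4918 (23.4%) every vehicle library lay below both primary libraries, against 9.4% of all CpGs, and in 1885 (8.97%) every one lay above, against 5.33%. CpGs called lower were at a median of 5.58% with vehicle and 69.6% in primary replicates 3 and 4, and CpGs called higher at 100% and 37.7%. Calls were made at 672 (7.58%, lower) and 230 (2.59%, higher) of the CpGs listed on 1 strand. They were made at 67 (4.2%) and 29 (1.82%) of those with both strands from 20 to 80%. Of the opposite-strand CpGs it was 35 (1.12%) and 9 (0.288%). These classes differed in depth, with a median of 47 to 87, 34 to 67 and 26 to 47 reads in vehicle libraries, in that order. The part of depth in these shares was not tested. The counts changed when libraries were left out: without vehicle replicate 1, 2, 3 or 4 in turn there were 18, 89, 77 and 37 lower and 1, 13, 10 and 5 higher, and without primary replicate 3 or 4 there were 700 or 581 lower and 462 or 447 higher. The cause was not tested.

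A complete reversal was seen at a few CpGs. Of the selected CpGs, 21 were unmethylated in all 4 vehicle libraries and fully methylated in both primary replicates 3 and 4, and 6 were the opposite. The CpG at 4338 of APMT01218314.1 was at 0% in all vehicle libraries and 100% in primary replicates 3 and 4 and 1, with 64.8% in primary replicate 2, and had at least 20 reads in each of the compared libraries (quasi-binomial test, adjusted p = 0.00853). It was at 21.6%, 0% and 34.7% in 5aCdR replicates 1 to 3. As this CpG was picked through vehicle values of 0%, a treated plate could only be equal or higher. The difference between 5aCdR and vehicle was not called there (quasi-binomial test, adjusted p = 0.32). The CpG at 6790482 of KB708229.1 was at 100% in all vehicle libraries and 0% in primary replicates 3 and 4 (quasi-binomial test, adjusted p = 0.0079). It was at 0% in primary replicate 1 and 34.2% in primary replicate 2, and at 100%, 100% and 96.8% after 5aCdR. The other named CpGs, at 1510841 of KB708127.1 and 35964510 of KB708129.1 (0% with vehicle) and at 2583077 of KB708301.1 and 6201382 of KB708219.1 (100% with vehicle), had 10 to 12 reads in their shallowest compared library and adjusted p of 0.0141 to 0.0296 in the same quasi-binomial test. In primary replicates 1 and 2 these stood at 91.7% and 0%, 26.7% and 100%, 7.5% and 37.5%, and 33.9% and 36.1%, in that order. Calls at all 6 were lost without vehicle replicate 1 or without vehicle replicate 4, and 2 of the 6 remained called without vehicle replicate 2 or 3.

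Neighbouring CpGs were then summed over tiles of 1000 bp. In 818 tiles, holding 2703 of the selected CpGs, there were at least 3 of them and they were more than 50% of the commonly covered CpGs. For 5aCdR against vehicle, 11 of these tiles were called lower (1.34%, against 0.783% of all 18639 tiles tested) and 0 higher (against 0.0161%), and at an unadjusted p below 0.05 in the quasi-binomial test 149 were lower (18.2%, against 11.1% of all) and 7 higher (0.856%, against 1.23% of all). The median difference was -4.87 percentage points, against -1.22 over all tiles. In 127 (15.5%) every 5aCdR library lay below every vehicle library, against 7.62% of all tiles, and in 6 (0.733%) every one lay above, against 1.19%. The count of called tiles was 4 without vehicle replicate 1 and 5 without vehicle replicate 4.

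The largest called fall, on KB708202.1 at 2915001 to 2916000, was even between plates. The tile was at 45.9%, 48.0% and 48.7% in 5aCdR replicates 1 to 3, against 86.2%, 89.0%, 86.2% and 84.5% in vehicle replicates 1 to 4. Its mean of 47.5% ± 1.45 (SD, n = 3) with 5aCdR against 86.5% ± 1.85 (SD, n = 4) with vehicle gave a difference of -38.9 percentage points (quasi-binomial test, adjusted p = 0.00341). All 3 of its covered CpGs were among the selected CpGs, and the call held without each library in turn. Primary replicates 3 and 4 were at 82.2% and 72.7%, so the treated plates were the low ones of the 3 groups.

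Another fall, on KB708131.1 at 29823001 to 29824000, began at an intermediate level. This tile holds the CpG at 29823538 described above, and was at 13.7%, 16.4% and 20.5% in 5aCdR replicates 1 to 3, against 51.3%, 46.9%, 65.3% and 54.1% in vehicle replicates 1 to 4 (quasi-binomial test, adjusted p = 0.0152). Primary replicates 3 and 4 were at 58.4% and 54.2%, within the range of the vehicle plates. The tile on KB708276.1 at 700001 to 701000 was at 51%, 55.4% and 57.1% with 5aCdR, against 89.3%, 86.4%, 91.1% and 76.4% with vehicle (adjusted p = 0.0112 in the quasi-binomial test). Primary replicates 3 and 4 stood at 62.7% and 55.7%, nearer to the treated plates.

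On KB708198.1 at 11411001 to 11412000 the treated plates were far apart, at 76.9%, 60.9% and 38.2%, against 87.5% to 97.7% with vehicle (quasi-binomial test, adjusted p = 0.0482). On KB708149.1 at 10699001 to 10700000 they were at 54.1% to 66.3%, against 87.9% to 100% with vehicle (adjusted p = 0.0329 in the quasi-binomial test). The call on KB708149.1 was lost without any 1 of the 7 libraries, that on KB708198.1 without any but 5aCdR replicate 1, that on KB708131.1 without vehicle replicate 1 or 4, and that on KB708276.1 without vehicle replicate 1. In all 5 tiles the groups did not overlap, which was a condition for naming them.

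For vehicle against primary cells, 192 of the 818 tiles were called lower in MT2 (23.5%, against 7.17% of all 17412 tiles tested) and 42 higher (5.13%, against 4.55%). The median difference was -10.5 percentage points, against 0 over all tiles. In 335 (41.0%) every vehicle library was below both primary libraries, against 16.0% of all tiles, and in 105 (12.8%) every one was above, against 11.4%. Tiles called lower were at a median of 24.1% with vehicle and 62.2% in primary cells, and tiles called higher at 83.5% and 47.5%. Without primary replicate 3 or 4 the called tiles were 39 or 29 lower and 8 or 5 higher, again with more tiles lower than higher.

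The 5 largest falls were at tiles of high methylation in primary replicates 3 and 4, whose values took part in the pick. Primary replicates 1 and 2 were at 29.8% to 95.3% there. The value of 29.8%, in primary replicate 2 on KB708200.1, lay within the range of the vehicle libraries. On KB708264.1 at 3976001 to 3977000, vehicle replicates 1 to 4 were at 2.83%, 3.28%, 0% and 9.03%, against 82.3% and 100% in primary replicates 3 and 4, a difference of -87.4 percentage points (quasi-binomial test, adjusted p = 0.000882). The 5aCdR libraries were at 3.63%, 3.92% and 0%, as low as the vehicle libraries. On KB708353.1 at 453001 to 454000, vehicle replicates were at 1.41%, 6.94%, 3.72% and 1.46%, against 81.1% and 83.8% in primary replicates 3 and 4 (quasi-binomial test, adjusted p = 0.000073). Both tiles were thus almost unmethylated in every MT2 plate, treated or not.

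On KB708269.1 at 152001 to 153000, vehicle libraries were at 9.88% to 17.2%, against 81.6% and 89.7% in primary replicates 3 and 4 (quasi-binomial test, adjusted p = 0.000464). On KB708188.1 at 7392001 to 7393000, vehicle replicate 1 was at 22.4% and the other vehicle libraries at 0% to 1.03%, against 98.3% and 69.7% (quasi-binomial test, adjusted p = 0.00849). On KB708200.1 at 6391001 to 6392000, vehicle libraries spread over 11.5% to 47.6%, against 100% in both primary replicates 3 and 4 (quasi-binomial test, adjusted p = 0.00346). The groups did not overlap in any of these tiles, which was a condition for naming them. The calls on KB708188.1 and KB708200.1 were lost without primary replicate 3 or 4.

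The 5 largest rises were at tiles of low methylation in primary replicates 3 and 4. Primary replicates 1 and 2 were at 17.2% to 52.7% there. The 5aCdR libraries lay between the other groups or among the vehicle plates. As the tiles were picked by their vehicle and primary values, this is given as a description. On KB708295.1 at 1568001 to 1569000, vehicle replicates 1 to 3 were at 100% and replicate 4 at 98.1%, against 10.3% and 15.3% in primary replicates 3 and 4, a difference of 86.7 percentage points (quasi-binomial test, adjusted p = 0.000313). The 5aCdR libraries were at 55.7%, 92.1% and 75.2%, below all vehicle libraries. On KB708151.1 at 10555001 to 10556000, vehicle replicates were at 88.2%, 91.5%, 74.8% and 81.9%, against 13.9% and 3.94% (quasi-binomial test, adjusted p = 0.00027), and the 5aCdR libraries were at 64.2%, 63.1% and 53.7%. On KB708169.1 at 11561001 to 11562000, vehicle libraries were at 75.6% to 84.5%, against 16.3% and 26.8% (quasi-binomial test, adjusted p = 0.000161), and 5aCdR libraries at 52.1% to 75.4%. In these 3 tiles each 5aCdR library was below each vehicle library and above both primary libraries, but the fall with 5aCdR was not called in any of them (quasi-binomial test, adjusted p = 0.0996, 0.0521 and 0.124).

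The remaining rises were less even. On KB708272.1 at 210001 to 211000, vehicle libraries were at 66.0% to 87.6%, against 16.3% and 12.1% in primary replicates 3 and 4 (quasi-binomial test, adjusted p = 0.000751). On KB708138.1 at 8912001 to 8913000, vehicle libraries spread over 62.4% to 100%, against 17.9% and 12.3% (quasi-binomial test, adjusted p = 0.00251). The 5aCdR libraries were at 57.5% to 67.1% in the first of these tiles and at 57.9% to 78.6% in the second, overlapping the vehicle libraries in both. Both calls were lost without primary replicate 3 or 4. One of the CpGs of the tile on KB708169.1 had opposite strands, and none in the other 9 tiles.

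**Figure D5:**
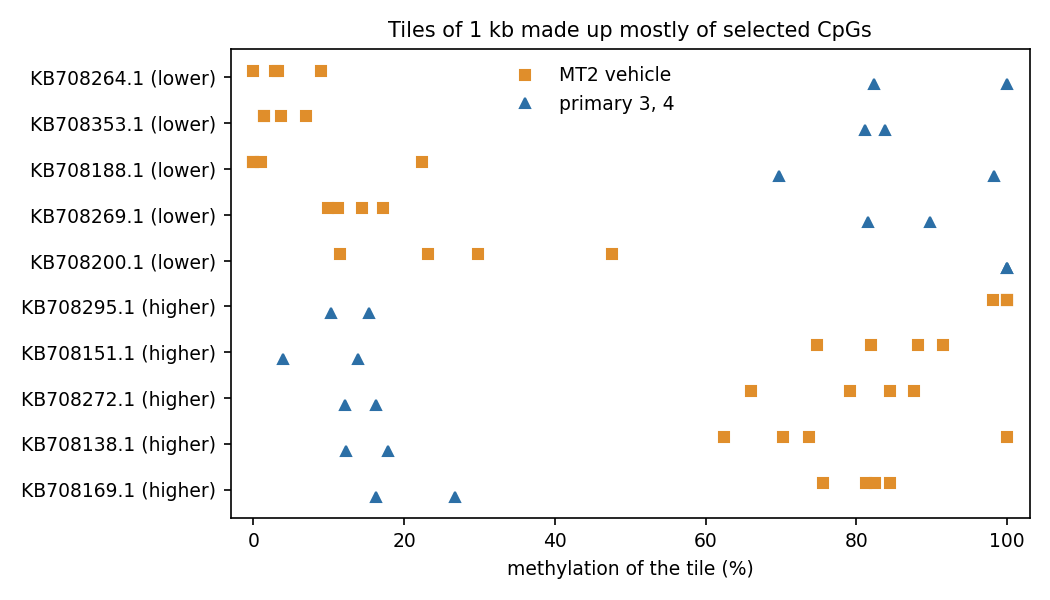
Methylation in percent of the 10 named tiles in MT2 with vehicle (squares, 4 libraries) and in primary replicates 3 and 4 (triangles), lower in MT2 in the upper 5 and higher in the lower 5. Points of 1 group may cover each other at 0% or 100%. The groups are apart in every tile, which was a condition for naming them.

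The selected CpGs lay on 939 scaffolds, with at most 661 on 1 of them, and 50.4% had no other selected CpG within 1000 bp. Close neighbours differed from primary cells together. Across pairs of selected CpGs 2 to 50 bp apart, which often share reads, the difference between vehicle and primary cells correlated with Pearson r = 0.522 (3722 pairs), at 76 to 250 bp with r = 0.337 (521 pairs), at 1 to 10 kb with r = 0.202 (2884 pairs) and at 10 to 100 kb with r = 0.119 (26191 pairs). The difference between 5aCdR and vehicle correlated with r = 0.315 at 2 to 50 bp and with r = 0.0244 at 1 to 10 kb. These are correlations across pairs of CpGs, which share libraries and are not independent replicates.

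At 51 to 75 bp the neighbours did not move together. Over all 2800 pairs at that distance, r was 0.0492 for vehicle minus primary cells and -0.288 for 5aCdR minus vehicle. In the 396 pairs in which both CpGs were listed on 1 strand only, r was 0.430 and 0.174. This is the distance at which the CpGs of opposite strands were paired.

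On a larger scale, 35 windows of 100 kb held at least 10 selected CpGs. Of these, 31 were lower with 5aCdR than with vehicle, with a median difference of -7.60 percentage points, and 25 were lower with vehicle than in primary cells, with a median of -4.37. In 6 windows every 5aCdR library was below every vehicle library, and in 1 every one was above, against 20.4% and 0.388% of the 2319 windows taken over all commonly covered CpGs. In 15 windows every vehicle library was below both primary libraries and in 3 every one was above, against 19.6% and 19.9% of windows over all CpGs. The window values ranged over -25.3 to 11.4 percentage points for 5aCdR minus vehicle and over -37.2 to 32.2 for vehicle minus primary cells.

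Scaffold KB708147.1 held 564 of the selected CpGs, at 44.6% ± 1.51 (SD, n = 3) with 5aCdR, 53.4% ± 1.25 (SD, n = 4) with vehicle and 53.9% ± 1.06 (SD, n = 2) in primary cells. There vehicle and primary cells were -0.497 percentage points apart, against -9.12 on the other scaffolds, while a CpG had a median of 2.01 reads in every 1000000 with vehicle and 1.43 in primary cells, and the part of the read share in this was not tested. On KB708184.1, with 178 selected CpGs, the gap was -2.54 percentage points, at 2.21 in every 1000000 with vehicle and 1.59 in primary cells. The 562 selected CpGs on small contigs were at 42.4% ± 0.995 (SD, n = 3) with 5aCdR, 50.7% ± 0.540 (SD, n = 4) with vehicle and 59.2% ± 1.90 (SD, n = 2) in primary cells, close to the other selected CpGs.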

How the data were processed

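Each deposited file lists, per strand position of a CpG with at least 10 reads, the coverage as a count of reads and the percent of reads with C and with T, per the file headers. The submitters' processing notes name methylKit 1.10.0 in R 3.6.1, Bismark 0.22.1 with Bowtie2, Trim Galore 0.5.0 and bcl2fastq 2.20.0.42; their settings, the build and any removal of PCR duplicates are not given in the sources used here. Coverage times percent C, rounded, gave the methylated reads, and the 2 strands of a CpG were summed.

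The selected CpGs, lists and tests were chosen with earlier results of these data known. Levels per library are means over CpGs. Groups were compared by exact permutation tests, two-sided by the size of the difference in means. CpGs and tiles were tested across the whole table with a quasi-binomial logistic model (dispersion moderated with limma 3.58.1 in R 4.3.3, not below 1, F test, Benjamini-Hochberg adjusted p), first tried on simulated data. Named were the 5 tiles and 3 CpGs with the largest called fall and rise per comparison, of at least 25 points and without overlap; ties among CpGs at 100 points were taken in the order of scaffold names, for rises backwards. Same-numbered libraries of 2 groups did not deviate together (r of -0.0164 to 0.00530). The number of molecules behind a level is unknown, so no read-based interval is given. Alternatives were a minimum of 20 reads, no CpGs in the top 1% of coverage, density 1 to 4, limits of 30 to 70%, 1 CpG per tile, pooled reads, other libraries for the choice, 20 reads drawn, other dispersions, tiles of 500 bp, the replicate number as a block, and single libraries left out. Strand classes and matched starting levels were added after the data were seen. No sequences or gene annotation of this build were used.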

Additional observations from a re-analysis of the deposited data

Results flagged for a closer look

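A vehicle library stood apart from the other 3 at 3 of 39 sets of vehicle values, by a test of the gap to the nearest library over the range of the group (Dixon). Chance alone gives about 1 in 20 such groups of 4, but this rate does not apply to the 39 sets. Sets with equal values in all 4 libraries, as at every named CpG, could not be flagged, and named tiles were picked through their vehicle values. In the tile on KB708188.1 at 7392001, vehicle replicate 1 was at 22.4%, against 0% to 1.03% in the other 3. In the tile on KB708295.1 at 1568001, vehicle replicate 4 was at 98.1%, against 100% in the other 3. At the opposite-strand CpGs, the strand that was low in primary replicates 1 and 2 averaged 12% in vehicle replicate 2, against 10.8% to 11% in the others. The 3 treated libraries and the 2 primary libraries left after the choice were not tested in this way.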

How the results depend on the processing

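The direction of the mean level was kept in all 3 comparisons under every alternative tried. The level of 5aCdR minus vehicle kept its p except with the replicate block (-6.96) and without any 1 library (-7.04 to -6.84), where the smallest possible p exceeds 0.05. The same limit on leaving out a library holds for the share above 80% (-13.5 to -11.5; block -13.3), and for the selected CpGs against sparse CpGs below 20% (-3.89 to -3.53) and above 80% (1.47 to 1.68; log2 ratio -0.0553 to -0.0497, and -0.0137 on 1 strand) and against matched denser CpGs (0.511 to 0.642).

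Differences near 0 changed sign. The share below 20% in 5aCdR minus vehicle was 0.699 with all reads, 0.990 with 20 reads drawn, 0.249 on 1 strand, 0.144 with both strands intermediate, 0.141 without opposite strands and -1.11 to 0.736 without 1 library. The share above 80% in vehicle minus primary cells was 1.04 with both strands intermediate, 0.263 with the block and -1.85 to 1.73 without 1 library, and the value furthest from 0 was -8.34 with CpGs chosen by vehicle replicates. With CpGs chosen by vehicle replicates, discordant pairs (0.400) and the intermediate share (1.08) changed sign in vehicle minus primary cells, and the share below 20% was 7.26. Discordant pairs were -3.03 with CpGs chosen by primary replicates 3 and 4. In 5aCdR minus vehicle, 2 results passed 0.05 in some settings: discordant pairs on 1 strand (5.51), without opposite strands (6.28) and with 20 reads (4.80), and the intermediate share with 20 reads drawn (9.02), on 1 strand (10.8) and without opposite strands (12.2).

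Counts of calls moved most. For 5aCdR against vehicle, selected CpGs called lower were 58 with 20 reads, 6 without the top 1% of coverage, 49 with the dispersion of 3 groups, 9162 (3393 higher) without dispersion, 3 with the replicate block and 0 to 21 (0 to 1 higher) without 1 library. Tiles called lower were 19 (1 higher) with 20 reads, 5 without the top 1% of coverage, 19 (1 higher) with the dispersion of 3 groups, 449 (102 higher) without dispersion, 6 with the block and 4 to 11 (0 to 1 higher) without 1 library. For vehicle against primary cells, CpGs called lower were 1741 with the dispersion of 3 groups, 10001 (5436 higher) without dispersion, 2397 (903 higher) with all 4 primary replicates, of which 2 chose the CpGs, and 18 to 700 (1 to 462 higher) without 1 library. With the block they were 0 (0 higher), with 3886 lower and 1668 higher at an unadjusted p below 0.05. Tiles were 484 (183 higher) without dispersion, 89 (18 higher) with the block and 29 to 172 (5 to 43 higher) without 1 library. Since the numbers do not pair the libraries, a call lost with the block is not a weaker effect. The cause of these changes was not tested.

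Limits are the 2 primary libraries that remain after the choice, the shallow vehicle replicates 2 and 3, strands missing below 10 reads, and single CpGs that rest on few molecules.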
